A study of Mus musculus with 93 samples.

Results

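The cardiopharyngeal muscle progenitor factors are 8 genes, Tcf21, Msc, Lhx2, Ebf1, Ebf2, Ebf3, Myf5 and Rasgrp3, of 24514 in the count table. They were chosen by name, without a measured value in the rule, and were followed across all 93 libraries. Each library was made from 10 sorted cells of mice, or of an embryonic stem cell (ESC) line derived from them, that carried Hcn4-GFP, Tbx1-Cre and the Ai9 reporter. Hcn4-GFP marks the first heart field (FHF). Tbx1-Cre switches on the red reporter of Ai9 for good, so RFP+ cells are the lineage of Tbx1-expressing cells, which includes the second heart field (SHF), whether or not they still express Tbx1. The in vivo libraries, 5 of GFP+ cells and 4 of RFP+ cells, came from embryos that the protocol places at E7.75 and the sample titles at E8.5. The in vitro libraries, 38 of GFP+ cells and 46 of RFP+ cells, came from spheroids at day 5.5 of differentiation. The labels list Activin A, Bmp4, Wnt3A, Wnt5A and Wnt11, alone or combined, as inducers for spheroids in general and do not say which of them these spheroids received. Wells are not tied to embryos or to differentiation runs, so n counts wells and p-values measure the spread between wells.

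Branchiomeric muscles of the head and neck do not arise from the somites that give trunk muscle. They come from pharyngeal mesoderm, which also supplies the SHF, and the shared origin of heart and branchiomeric muscle is called the cardiopharyngeal field. Tbx1 acts high in its network. The basic helix-loop-helix factors Tcf21 (capsulin) and Msc (MyoR) and the LIM-homeodomain factor Lhx2 mark the pharyngeal muscle progenitors, and Myf5 is the factor that commits progenitors to skeletal muscle. Ebf1, Ebf2 and Ebf3 belong to the COE family of helix-loop-helix factors, whose single ascidian relative promotes pharyngeal muscle at the expense of heart fate. Rasgrp3 is a guanine nucleotide exchange factor that activates Ras proteins and is also known from endothelial cells. The study looked for a muscle marker in older spheroids, because Tbx1 is also active in progenitors of head muscle. Here the question was how far the early factors of that programme were present in each population.

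In mm10 (GRCm38) coordinates with GENCODE M21 annotation, Tcf21 lies on chromosome 10 from 22817281 to 22820174 on the minus strand and Myf5 on the same chromosome from 107482908 to 107486134, also on the minus strand. Msc lies on chromosome 1 from 14753346 to 14755992 on the minus strand and Lhx2 on chromosome 2 from 38339281 to 38369733 on the plus strand. Ebf1 lies on chromosome 11 from 44617317 to 45008091 on the plus strand, Ebf2 on chromosome 14 from 67233292 to 67430918 on the plus strand and Ebf3 on chromosome 7 from 137193673 to 137314445 on the minus strand. Rasgrp3 lies on chromosome 17 from 75435896 to 75529054 on the plus strand. Exons of Msc, Ebf2 and Ebf3 overlap those of an annotated antisense gene (Gm9947, Gm10860 and Gm45278), and because no strand setting is given for the counting, reads of the pair cannot be told apart.

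RefSeq promoter windows (GRCm38.p6) were at hand for 6 of the 8 members, in 9 windows. In the 250 bases before each start, both strands were searched for 5 motifs: the T-box site GGTGTGA, the EBF palindrome (TCCC and GGGA with 2 bases between), the E-boxes CAGCTG and CATATG, and the homeodomain core TAATTA. No motif holds another. Only the T-box site was found, in 2 of the 9 windows, one of Ebf1 and one of Rasgrp3, against 3.33% of 32841 RefSeq windows of the same length. The EBF palindrome occurred in 0.780% of all windows, CAGCTG in 13.002%, CATATG in 3.47% and TAATTA in 4.84%. The 2 windows with a T-box site are shown because they belong to members that were higher in the Tbx1 lineage. They read in the direction of transcription, with the site, or its reverse complement TCACACC, in capitals. That of Ebf1 is chr11:44619978-44620227 (plus strand), with the match ending 71 bases before the start, and that of Rasgrp3 is chr17:75465288-75465537 (plus strand), with the match ending 186 bases before the start.
Ebf1: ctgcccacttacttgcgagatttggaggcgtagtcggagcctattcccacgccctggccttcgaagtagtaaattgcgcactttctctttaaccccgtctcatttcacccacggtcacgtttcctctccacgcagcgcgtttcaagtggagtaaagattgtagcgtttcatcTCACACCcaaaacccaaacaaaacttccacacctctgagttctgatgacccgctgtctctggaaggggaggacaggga
Rasgrp3: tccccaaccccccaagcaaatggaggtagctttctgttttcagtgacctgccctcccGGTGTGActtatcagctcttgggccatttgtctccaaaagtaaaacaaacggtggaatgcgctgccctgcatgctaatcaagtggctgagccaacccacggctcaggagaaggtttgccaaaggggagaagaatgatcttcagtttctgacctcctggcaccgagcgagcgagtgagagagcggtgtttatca
A match of letters is a description of these windows and says nothing on binding.

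Levels are given as CPM, the reads of a gene per 1000000 reads counted to genes in that library. Totals were 712732 to 2525460 reads in vivo in GFP+ libraries, 1246546 to 1479957 in RFP+ libraries, 445071 to 5658882 in vitro in RFP+ libraries and 828193 to 4371849 in vitro in GFP+ libraries except well C9, which had 6288 reads and none for any member. In vivo GFP+ libraries held reads for 6189 to 8302 genes, and in vivo RFP+ libraries for 10263 to 13052. In vitro RFP+ and GFP+ wells filled different plate columns, so population and column cannot be told apart. In vivo, GFP+ wells filled plate rows A to E and RFP+ wells rows F to H, so population and row cannot be told apart. The marker genes of the reporters followed the labels: Hcn4 averaged 14.1 ± 15.3 CPM in GFP+ and 0.338 ± 0.676 in RFP+ libraries in vivo (SD, n = 5 and 4) and 7.34 ± 4.43 and 0.441 ± 0.663 in vitro (SD, n = 38 and 46). Tbx1 had no read in GFP+ libraries in vivo and averaged 3.79 ± 3.33 CPM in RFP+ libraries there (SD, n = 4). In vitro it averaged 0.0303 ± 0.132 CPM in GFP+ and 2.49 ± 1.82 in RFP+ libraries (SD, n = 38 and 46).

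In the embryo, 5 of the 8 members, Tcf21, Ebf1, Ebf2, Ebf3 and Rasgrp3, were higher in every RFP+ library than in any GFP+ library. The same held for 11.7% of the genes with a read in any embryo library. Msc, Lhx2 and Myf5 had no read in any GFP+ library and few in RFP+ libraries. EdgeR's quasi-likelihood test passed 4 members through the filter on low counts (Tcf21, Ebf1, Ebf2 and Rasgrp3) and called 3 of them higher in RFP+ cells at an adjusted p under 0.1, where 10.1% of all genes tested were called and 6.21% were called higher in RFP+ cells. Ebf1, Ebf2 and Rasgrp3 passed the filter through their RFP+ libraries alone and so had to differ. Since 10 cells were pooled, fewer cells that express a gene and less RNA of it per cell cannot be told apart.

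Tcf21 was the member with the highest level in embryo RFP+ cells. Its 4 RFP+ libraries held 42.5, 70.0, 72.3 and 135.2 CPM. Of the 5 GFP+ libraries, 3 held none and the others held 14.99 and 41.2 CPM, so the highest GFP+ library lay just under the lowest RFP+ library. The means were 80.0 ± 39.2 CPM (SD, n = 4) and 11.2 ± 17.96 CPM (SD, n = 5), a ratio of 7.12. The 2-sided exact permutation test on log2(CPM + 1) gave p = 0.0159, the smallest p that 5 against 4 libraries allow, while edgeR gave a log2 fold change of 2.72 with an SE of 1.61 and an adjusted p of 0.516. Without well B12, which held the 41.2 CPM, the GFP+ mean was 3.75 CPM. Tcf21 is also a gene of the epicardium, and the summed level of 10 epicardial markers overlapped between the populations, at 19.6 to 254 CPM in GFP+ and 28.9 to 134 in RFP+ libraries. Of the 10, Wt1, Upk3b, Upk1b and Sema3d had the higher mean in GFP+ libraries, Gpm6a, Lrrn4, Bnc1, Aldh1a1 and Sparcl1 in RFP+ libraries, and Msln had no read in either. Their part in the Tcf21 values was not tested.

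Msc, the close relative of Tcf21, was found in 2 of 4 RFP+ libraries, at 7.30 and 6.76 CPM (10 reads each), and in none of 5 GFP+ libraries. Lhx2 was found in 3 of 4 RFP+ libraries at 0.683, 1.46 and 6.76 CPM, which are 1, 2 and 10 reads. Myf5 was found in 3 of 4 RFP+ libraries, at 0.730, 7.22 and 9.56 CPM, of which the lowest is 1 read. For all 3 genes at least 1 RFP+ library was at 0 as the GFP+ libraries were, and the exact permutation test gave p = 0.333 for Msc, 0.0952 for Lhx2 and 0.0952 for Myf5 (n = 4 and 5). None of them passed the filter of edgeR.

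Ebf1 had no read in any GFP+ library of the embryo, and its 4 RFP+ libraries held 12.0, 20.4, 28.4 and 47.8 CPM. Against the level of 3 reads per GFP+ library, averaged over the group, the RFP+ mean of 27.2 ± 15.3 CPM (SD, n = 4) was at least 10.4-fold higher (edgeR's adjusted p = 0.0146). Ebf2 likewise had no GFP+ read, and its RFP+ libraries held 16.1, 36.9, 47.3 and 126.8 CPM. Its RFP+ mean of 56.7 ± 48.4 CPM (SD, n = 4) was at least 21.7-fold higher, and at least 12.8-fold without well G12, which held the highest value (adjusted p from edgeR = 0.0167). The bounds for Ebf1 and Ebf2 cover counting error only. Pairs of embryo GFP+ libraries differed by a mean squared residual of 63.9 to 103 times sampling noise, and RFP+ pairs by 8.71 to 16.7 times. A count of 0 there does not bound the level in the cells. Ebf3 had 1 read in 1 GFP+ library and 6.57, 8.76, 17.1 and 57.8 CPM in the RFP+ libraries. Well G12 was again the highest, and without it the RFP+ mean fell from 22.5 ± 23.9 (SD, n = 4) to 10.8 CPM. The ratio of pooled CPM for Ebf3 was 158, with an exact 95% interval of 27.9 to 6306 that covers counting error only, and Ebf3 was under the filter of edgeR. The exact permutation test gave p = 0.0159 for each of the 3 genes. Any gene whose RFP+ libraries all exceed its GFP+ libraries gets this p, so it only restates the lack of overlap. Ebf1 and Ebf2 passed the filter of edgeR through RFP+ libraries alone, so their adjusted p add no separate support.

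Rasgrp3 had no read in GFP+ libraries of the embryo and 18.5, 37.2, 37.8 and 49.2 CPM in RFP+ libraries. It was the evenest member, with an SD of 35.7% of the mean. Its mean of 35.7 ± 12.7 CPM (SD, n = 4) exceeded the 3-read level of GFP+ libraries at least 13.7-fold (counting error only). The exact permutation test gave p = 0.0159, which likewise only restates the lack of overlap. EdgeR gave an adjusted p of 0.0155, after a filter that Rasgrp3 passed through RFP+ libraries alone. Of 12 endothelial markers, 5 were tested in the embryo and 3 were called, all higher in RFP+ cells, while Tek had a log2 fold change of -1.09 and was not called. Their summed level was 3.06 to 104 CPM in GFP+ and 256 to 621 CPM in RFP+ libraries, and 6 of the 12, among them Pecam1, Cdh5 and Emcn, had no read in any GFP+ library. The part of endothelial RNA in the Rasgrp3 values was not tested.

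**Figure D1:**
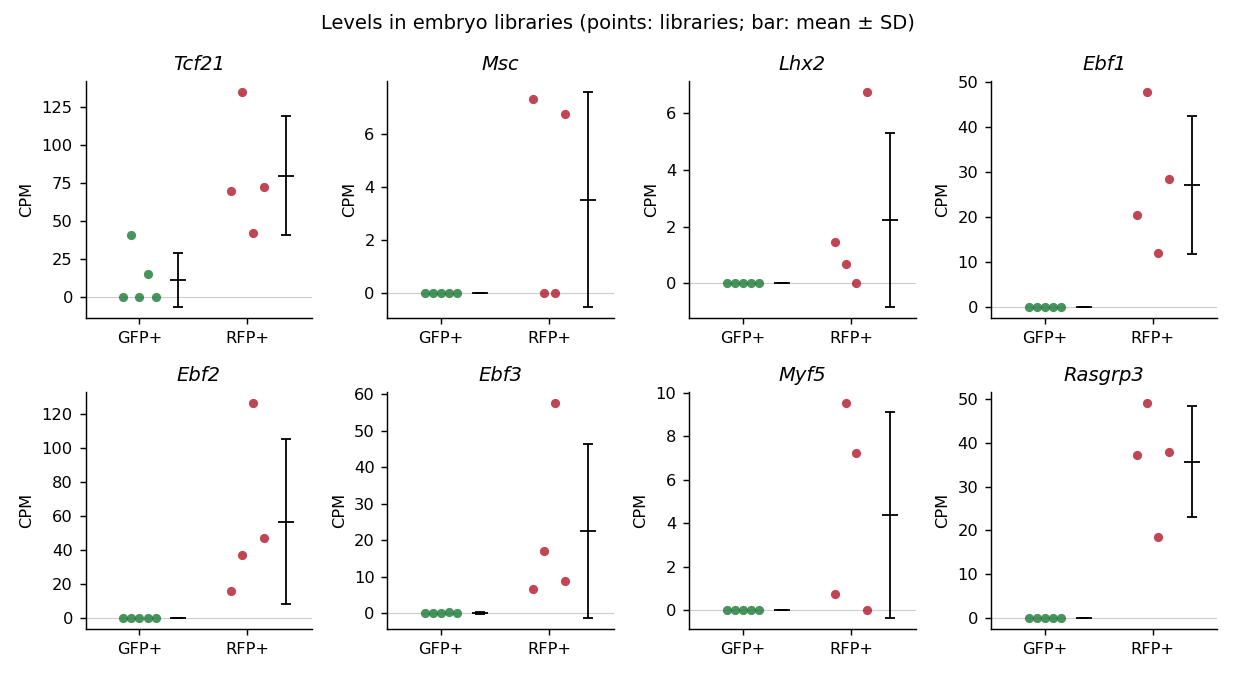
CPM of each member in the 5 GFP+ and 4 RFP+ embryo libraries; each point is a library and the bar beside it the mean ± SD, with a separate linear axis for each gene. All RFP+ points of Tcf21, Ebf1, Ebf2, Ebf3 and Rasgrp3 lie above all GFP+ points, while Msc, Lhx2 and Myf5 have an RFP+ library at 0.

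In spheroids the members did not all move. Ebf1, Ebf2 and Rasgrp3 were much higher in RFP+ cells, Ebf3 was modestly higher, and Tcf21, Msc, Lhx2 and Myf5 were low in both populations. Of the 8 members, 4 passed the filter of edgeR and all 4 were called higher in RFP+ cells, but 77.9% of all genes tested were called in vitro and 37.8% were called higher in RFP+ cells, so the count itself says little and the sizes are given instead. Ebf1, Ebf2 and Rasgrp3 passed that filter through their RFP+ wells, so their calls and adjusted p have little weight of their own. By log2 fold change, Rasgrp3 ranked 14th, Ebf2 23rd, Ebf1 42nd and Ebf3 1155th from the highest of 9940 genes.

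Rasgrp3 was found in all 46 RFP+ wells, from 7.70 through a median of 32.4 to 84.8 CPM, and in 23 of 38 GFP+ wells, from 0 through a median of 0.834 to 15.7 CPM. In 38 of the 46 RFP+ wells it was above every GFP+ well. The means were 34.3 ± 16.997 and 2.36 ± 3.53 CPM (SD, n = 46 and 38), a ratio of 14.5, with a log2 fold change of 3.79 ± 0.28 (SE) and an adjusted p of 5.9e-23 from edgeR. The summed level of the endothelial markers overlapped between the populations here, at 6.67 to 283 CPM in RFP+ wells (median 55.6) and 12.97 to 74.4 CPM in the 37 GFP+ wells other than C9 (median 31.7). In well C9 it was 159 CPM, which is 1 read.

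Ebf2 was found in all RFP+ wells, from 25.9 through a median of 64.4 to 117 CPM, and in 30 of 38 GFP+ wells, from 0 through a median of 3.76 to 31.3 CPM. All but 1 RFP+ well lay above every GFP+ well. Its means were 66.6 ± 21.5 and 5.75 ± 7.26 CPM (SD, n = 46 and 38), with a log2 fold change of 3.41 ± 0.23 (SE) and an adjusted p of 2.5e-25 from edgeR. Ebf1 was found in all RFP+ wells, from 9.70 through a median of 32.8 to 57.3 CPM, and in 34 of 38 GFP+ wells, from 0 through a median of 2.67 to 27.8 CPM. Its log2 fold change was 2.88 ± 0.22 (SE, edgeR's adjusted p = 4.9e-22), and 33 of 46 RFP+ wells were above every GFP+ well. Within each of the 8 plate rows the RFP+ mean of Ebf1, Ebf2 and Rasgrp3 was above the GFP+ mean.

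Ebf3 had the smallest log2 fold change of the 3 Ebf genes. It held 0 to 40.4 CPM in RFP+ wells (median 17.7) and 0 to 25.6 CPM in GFP+ wells (median 10.4), so the wells overlapped widely and 6 RFP+ wells were above every GFP+ well. The log2 fold change was 0.73 ± 0.19 (SE, adjusted p = 3.3e-04 from edgeR), and the RFP+ mean was the higher in 7 of 8 plate rows. A 2-sided permutation test on log2(CPM + 1) with 100000 resamples gave p = 6e-05 for Ebf3 and 2e-05, the smallest those resamples can give, for Ebf1, Ebf2 and Rasgrp3.

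Tcf21 did not differ detectably between spheroid populations, at 3.598 ± 4.02 CPM in RFP+ and 3.46 ± 4.03 CPM in GFP+ wells (SD, n = 46 and 38; permutation test p = 0.549), and 37 of 46 and 25 of 38 wells held a read. Lhx2 was near 1 CPM in both, at 0.988 ± 1.45 in RFP+ and 0.889 ± 1.44 in GFP+ wells (SD, n = 46 and 38; permutation test p = 0.676). Myf5 was found in 9 of 46 RFP+ and 6 of 38 GFP+ wells, with 22 and 8 reads in all (permutation test p = 0.305). Msc was found in 4 of 46 RFP+ wells, with 14 reads in all, and in 0 of 38 GFP+ wells, which by the exact binomial 95% interval allows a share of up to 9.25% (permutation test p = 0.170). The filter kept these 4 genes out of the edgeR fit. With no filter, edgeR called Msc (log2 fold change 1.83, adjusted p = 4.5e-05) and Myf5 (0.99, adjusted p = 0.079) higher in RFP+ cells, on the few reads given, and did not call Tcf21 or Lhx2.

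**Figure D2:**
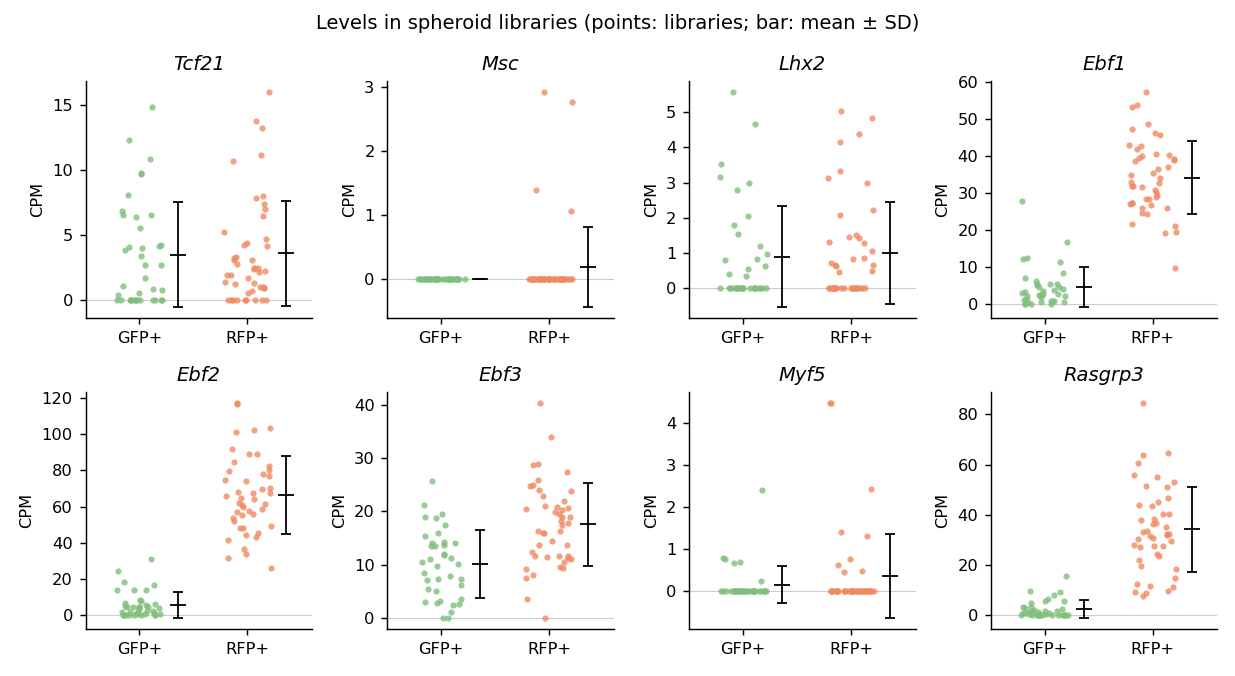
CPM of each member in the 38 GFP+ and 46 RFP+ spheroid libraries; each point is a library and the bar beside it the mean ± SD, with a separate linear axis for each gene. Of the 46 RFP+ points, 33 for Ebf1, 45 for Ebf2 and 38 for Rasgrp3 lie above every GFP+ point, against 6 for Ebf3, and Tcf21, Msc, Lhx2 and Myf5 lie low in both.

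The share of libraries with a read moved with depth for the low members. When every library was thinned to 400000 reads, leaving out well C9, the expected share for Tcf21 was 57.6% in RFP+ and 51.5% in GFP+ wells of spheroids, against 80.4% and 65.8% at full depth. For Lhx2 it was 26.03% and 23.4%, against 50.0% and 44.7%. For Rasgrp3 it was 99.8% and 40.2%, against 100.0% and 60.5%, and for Ebf1 100.0% and 64.4%, against 100.0% and 89.5%. The shares of Ebf1 and Rasgrp3 thus stood further apart after thinning, and those of Tcf21 and Lhx2 closer together.

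**Figure D3:**
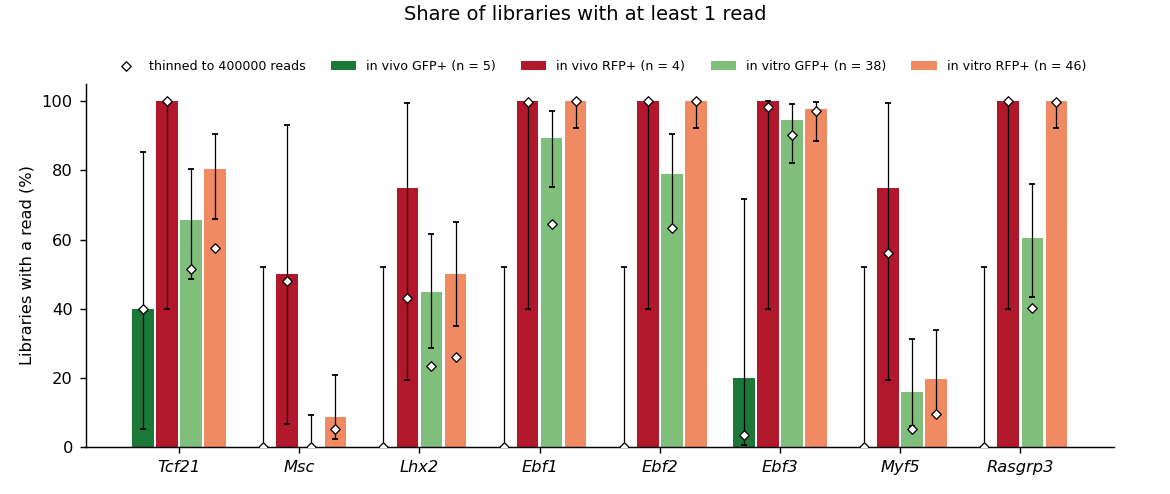
Share of libraries with at least 1 read of each member, in percent, in the 4 groups; bars give the share at full depth with its exact 95% binomial interval, and diamonds the share expected at 400000 reads. Ebf1, Ebf2 and Rasgrp3 are found in all RFP+ libraries of both sources, whereas Msc and Myf5 are found in few spheroid libraries.

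RFP+ cells of the embryo held more Tcf21 than those of spheroids, while the means of Ebf1, Ebf2, Ebf3 and Rasgrp3 differed between sources by a ratio of 0.796 to 1.28. Within each population, embryo and spheroid wells filled different plate columns, so source and column cannot be told apart. Of the 5 members tested, edgeR called 1, Tcf21, where 42.6% of all genes tested were called. Tcf21 was 22.2-fold higher in the embryo by the ratio of means, its 4 embryo libraries all lay above the highest of 46 spheroid libraries (15.99 CPM), as held for 2.17% of the genes tested, and its log2 fold change was 4.48 ± 0.45 (SE, adjusted p = 1.3e-12 from edgeR). It ranked 33rd from the highest of 11147 genes. The in vivo minus in vitro log2 fold changes of the others were -0.27 ± 0.25 for Ebf1, -0.18 ± 0.27 for Ebf2, 0.41 ± 0.37 for Ebf3 and 0.10 ± 0.36 for Rasgrp3 (SE), with edgeR's adjusted p between 0.407 and 0.857. These calls rested on single embryo libraries: without well G11 Ebf1 was called (-0.68, adjusted p = 0.0657 from edgeR) and without well G12 Ebf2 was called (-0.95, edgeR's adjusted p = 0.0111). Msc averaged 3.51 ± 4.06 CPM in the embryo and 0.177 ± 0.629 in spheroids, and Myf5 4.38 ± 4.74 and 0.357 ± 1.00 (SD, n = 4 and 46), both under the filter.

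GFP+ cells also differed between sources. Ebf1, Ebf2 and Rasgrp3 had no read in the 5 embryo libraries but means of 4.46, 5.75 and 2.36 CPM in spheroids. EdgeR called all 5 members tested, 4 of them lower and 1 higher in the embryo, where 68.0% of all genes tested were called, 48.3% lower and 19.7% higher in the embryo. The 4 that were lower passed the filter through the spheroid libraries alone and so had to differ. The median log2 fold change of all genes was -0.67 in this comparison. Ebf3 was found in 36 of 38 spheroid GFP+ wells and with 1 read in the embryo, and its pooled ratio was 75.03 with an exact 95% interval of 13.4 to 2967 (counting error only). Against the level of 3 reads per embryo library, Ebf2 was at least 2.20-fold and Ebf1 at least 1.71-fold higher in spheroid GFP+ cells (counting error only). Rasgrp3 gave no bound over 1. Tcf21 was the exception, at a log2 fold change of 1.70 ± 0.83 (SE, adjusted p = 0.0707 from edgeR) higher in the embryo, and without well B12 it was 0.14 with an adjusted p of 0.917 from edgeR.

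The RFP+ to GFP+ differences themselves were compared between sources. With the SE of each fit, 3 members could be compared and 0 were called, at adjusted p of 0.191 for Ebf1, 0.233 for Ebf2 and 0.297 for Rasgrp3, where 5.26% of all genes tested were called. All 3 had an unadjusted p under 0.05. An edgeR fit of all 4 groups with an interaction term called 5 members, where it called 54.4% of all genes tested.

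Levels of different genes were compared per kilobase of merged exons. In embryo RFP+ cells Tcf21 stood at 34.1 ± 16.7 CPM per kb, followed by Ebf2 at 8.19 ± 6.99, Rasgrp3 at 6.11 ± 2.18, Ebf1 at 2.78 ± 1.57, Ebf3 at 2.44 ± 2.59, Myf5 at 2.10 ± 2.28, Msc at 1.38 ± 1.60 and Lhx2 at 0.506 ± 0.701 (SD, n = 4). The ranges of neighbours overlapped throughout. Tcf21 was above Ebf2 in 3 of 4 libraries and Rasgrp3 above Ebf1 in all 4, but Ebf2 was above Rasgrp3 in 2. In spheroid RFP+ cells the order was Ebf2 at 9.61 ± 3.10 CPM per kb, Rasgrp3 at 5.87 ± 2.91, Ebf1 at 3.50 ± 1.02, Ebf3 at 1.90 ± 0.847 and Tcf21 at 1.53 ± 1.71, with the remaining members at or under 0.225 (SD, n = 46). Here Ebf2 exceeded Rasgrp3 in 36 of 46 wells, Rasgrp3 exceeded Ebf1 in 34 and Ebf1 exceeded Ebf3 in 43. In spheroid GFP+ cells Tcf21 at 1.47 ± 1.72 and Ebf3 at 1.10 ± 0.691 CPM per kb led the order (SD, n = 38), and Tcf21 was above Ebf3 in 19 of 38 wells.

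**Figure D4:**
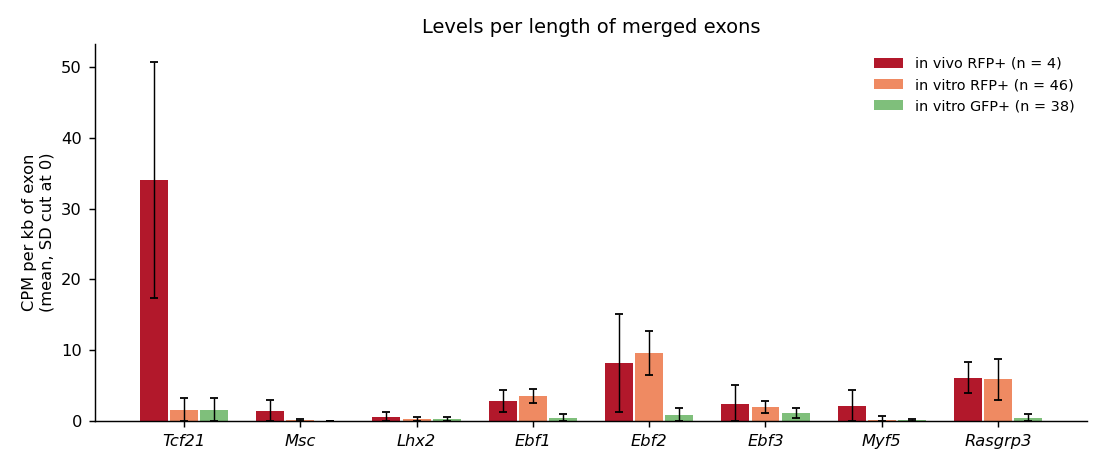
Mean CPM per kilobase of merged exons for each member in embryo RFP+, spheroid RFP+ and spheroid GFP+ libraries; error bars are SD, cut at 0. Tcf21 leads in embryo RFP+ cells at 34.1, while Ebf2 and Rasgrp3 lead in spheroid RFP+ cells at 9.61 and 5.87.

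Within a library, reads were also divided over the 4 Ebf genes, counting libraries with at least 20 Ebf reads. In RFP+ cells the mean share of Ebf2 was 48.2% ± 14.4 in the embryo and 55.5% ± 7.77 in spheroids (SD, n = 4 and 46). Ebf2 had the largest share in 45 of 46 spheroid libraries, 1 of them in a tie with Ebf1, but in the embryo it did so in wells G12 and H11 and Ebf1 in wells F12 and G11. Ebf1 took 33.1% ± 19.0 and 29.3% ± 7.745, and Ebf3 17.8% ± 8.14 and 14.5% ± 5.196. In the 32 spheroid GFP+ libraries with enough reads, Ebf3 had the highest mean share, 45.5% ± 22.1, and the largest share in 18 libraries, with Ebf2 at 24.3% ± 22.7 and Ebf1 at 20.2% ± 20.4 (SD, n = 32). Ebf4, which is not a member, took 10.0% ± 11.5 of Ebf reads there and under 1% on average in RFP+ cells. These shares rest on gene totals that are not scaled by length, and a library with few Ebf reads gives a coarse share.

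**Figure D5:**
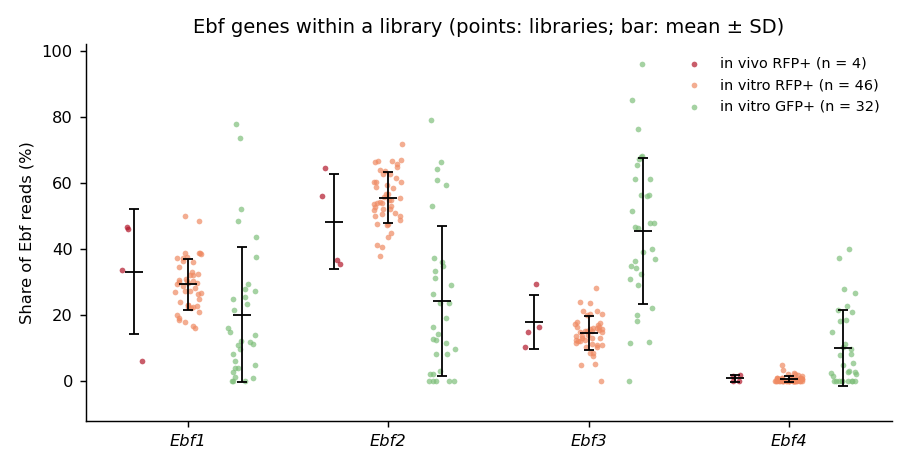
Share of the reads of Ebf1 to Ebf4 that each gene took within a library, in percent, for libraries with at least 20 such reads; points are libraries and bars mean ± SD. Ebf2 has the largest share in 45 of 46 spheroid RFP+ libraries and in 2 of 4 embryo RFP+ libraries, and Ebf3 in 18 of 32 spheroid GFP+ libraries, where points scatter widely.

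Across spheroid RFP+ wells the members that were high did not rise and fall as 1 block. With near-identical wells summed (39 libraries), Spearman's rho of log2(CPM + 1) was 0.27 between Ebf1 and Ebf2, 0.34 between Ebf1 and Ebf3 and 0.34 between Ebf2 and Ebf3, and Rasgrp3 had a rho of -0.13 to -0.15 with each of the 3. Over the 37 GFP+ wells other than C9, rho between Ebf1 and Ebf2 was -0.46, over values that were mostly a few reads. These are descriptions over wells, and rho with the total counts of a well was between -0.19 and 0.21 for these 4 genes in the 46 RFP+ wells. By the rule for likeness, with 46 RFP+ wells and about 9800 genes compared, the genes closest to Tcf21 were Fam132a, Fsd1l and Airn, at rho of 0.67, 0.57 and 0.54. Those closest to Lhx2 were Abcf3, Ubn1 and Vps18, at 0.68, 0.64 and 0.55. Ebf1 was closest to Fstl1, Dvl1 and Batf, at 0.60, 0.59 and 0.59, and Ebf2 to Zfp462, Vps54 and Dcdc2a, at 0.60, 0.58 and 0.57. Ebf3 was closest to Mir17hg, Fstl1 and Gnb4, at 0.61, 0.60 and 0.59, and Rasgrp3 to Zfp622, Etv3 and Mrpl46, at 0.59, 0.58 and 0.55. All these rho were picked as the highest of about 9800, which by itself raises them, and none was tested. With near-identical wells summed the order shifted: Fstl1 ranked 10th for Ebf1 and Dvl1 1st, Vps54 ranked 9th for Ebf2, Mir17hg 4th for Ebf3 and Zfp622 5th for Rasgrp3, while Fam132a and Abcf3 stayed 1st for Tcf21 and Lhx2.

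Other genes of the pharyngeal mesoderm network were mixed. Of 20 listed genes, 14 were tested in vivo and 3 were called higher and 1 lower in RFP+ cells, with a median log2 fold change of 1.15 against 0.09 over all genes. Among those higher were Six4 and Foxc2, with means in RFP+ libraries of 42.2 ± 18.1 and 18.9 ± 7.78 CPM (SD, n = 4). Foxc2 had no GFP+ read, and at the bound of 3 reads per library (counting error only) it still lay above the median. Tbx20, a cardiac T-box factor, was the one lower (log2 fold change -7.32 ± 0.61, SE). In vitro 13 were tested, with 6 called higher and 4 lower and a median of 0.07 against -0.02 over all genes. Foxc2 was called higher in RFP+ cells in both sources, with an in vitro log2 fold change of 5.56 ± 0.27 (SE).

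The later myogenic factors were barely detected. Myod1, Myog, Myf6, Pax7 and Lbx1 had no read in any embryo library, and in spheroids Myod1 was found in 2 of 46 RFP+ and 2 of 38 GFP+ wells and Myog in 1 and 4. Of 20 listed genes, 4 were tested in vivo and 1, Acta1, was called, lower in RFP+ cells (log2 fold change -4.55 ± 1.17, SE). In vitro 5 were tested and all were called. Pax3, a gene of somites and migrating muscle precursors, and Tnnt3 were higher in RFP+ cells, with log2 fold changes of 3.77 ± 0.31 and 2.24 ± 0.30 (SE), and Met, Des and Acta1 were lower, at -1.42 ± 0.24, -2.46 ± 0.22 and -4.95 ± 0.40 (SE). The list's median was -2.04 in vivo and -1.42 in vitro. Des and Acta1 are also expressed in early heart muscle, and the summed level of 12 cardiomyocyte genes was 21833 to 52171 CPM in embryo GFP+ and 1199 to 2389 CPM in embryo RFP+ libraries. All 11 cardiomyocyte genes tested in vivo were called lower in RFP+ cells. In vitro 3 of 4 were, with log2 fold changes of -3.31 ± 0.35 for Ttn, -1.94 ± 0.28 for Tnni1 and -1.44 ± 0.48 for Myl7 (SE). The spheroid sums of the 12 were far lower than those of embryo GFP+ libraries and overlapped. They were 28.4 to 1438 CPM (median 69.8) in GFP+ wells other than C9 and 15.9 to 143 CPM (median 63.7) in RFP+ wells.

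Ebf2, Ebf3 and Myf5 are also known from somites. Of 12 paraxial and somite genes 5 were tested in vitro and all 5, Meox1, Tbx6, Tbx18, Foxd1 and Twist1, were called higher in RFP+ cells, at a median of 2.61 on the log2 scale. Of all genes tested, 37.8% were called higher. Mesp2 was under the filter and averaged 2.79 CPM in RFP+ and 4.81 CPM in GFP+ wells. The summed level of the 12 was 108 to 327 CPM in RFP+ wells and 0 to 77.7 CPM in GFP+ wells, and the groups did not overlap. In the embryo the sums overlapped, at 81.0 to 111 CPM in RFP+ and 0 to 163 CPM in GFP+ libraries, and Meox1 alone of 3 genes tested was called, with no GFP+ read and 36.2 ± 17.99 CPM in RFP+ libraries (SD, n = 4). Tbx6, Msgn1, Mesp2 and Ripply2, which mark presomitic mesoderm, had no read in any embryo library, but Tbx6 averaged 11.7 ± 7.82 CPM in spheroid RFP+ wells (SD, n = 46). The part of paraxial cells in the values of the Ebf genes and Myf5 was not tested.

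Few relatives of the members passed the filter. Of 14 paralogs, 1 was tested in vivo and was not called, and 2 were tested in vitro. Both, the somite factor Tcf15 and Lhx1, were called higher in RFP+ cells, with log2 fold changes of 5.44 ± 0.27 and 1.61 ± 0.31 (SE). Of the other Rasgrp genes, Rasgrp2 averaged 11.6 CPM in RFP+ and 10.1 CPM in GFP+ libraries in vivo, and Rasgrp1 and Rasgrp4 were under the filter in both sources.

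Markers of further cell types are given for their overlap with the members. Neural plate genes, 10 in all, summed to 27.03 to 82.6 CPM in embryo RFP+ and 0 to 7.15 CPM in embryo GFP+ libraries, with Gbx2 called in vivo, at no GFP+ read and 19.6 ± 4.84 CPM in RFP+ libraries (SD, n = 4). In vitro 3 of the 10 were tested, where 37.8% of all genes tested were called higher in RFP+ cells. Otx2 and Gbx2 were called higher in RFP+ cells, at 0.71 ± 0.15 and 0.84 ± 0.28 (SE). Sox2 was lower there, at -0.36 ± 0.24 (SE), and was not called. Neural crest genes, 8 in all, summed to 40.5 to 107 CPM in embryo RFP+ and 0 to 180 CPM in embryo GFP+ libraries, and in vitro Ets1 was called lower in RFP+ cells (-0.68 ± 0.14, SE). Of the endothelial list, Emcn, Egfl7 and Flt1 were called higher in RFP+ cells in vivo and Kdr and Egfl7 in vitro. Of the epicardial list, Sparcl1 alone was tested in both sources and was called in vitro (3.21 ± 0.18, SE). Of the endoderm list, Foxa2 was higher and Epcam, Cldn6 and Trap1a were lower in spheroid RFP+ cells, at 1.88 ± 0.37, -2.13 ± 0.13, -1.501 ± 0.13 and -3.93 ± 0.24 (SE). None of that list was tested between the embryo populations, where it summed to 8.78 to 648 CPM in RFP+ and 0 to 20.3 CPM in GFP+ libraries. Cldn6 and Epcam averaged 249 ± 193 and 63.5 ± 77.4 CPM in embryo RFP+ libraries (SD, n = 4), with no GFP+ read. Apoa1 had the higher mean in embryo GFP+ libraries. Blood genes were not tested in either source, and 1 embryo RFP+ library, well F12, summed to 1161 CPM of them against 0 to 19.6 in the others. Ebf and Lhx2 genes are also known from neural tissue, and the part of such cells in their values was not tested.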

How the data were processed

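Cells were sorted by the authors into 96-well plates, 10 per well, and 1 library per well was made by priming on polyadenylated RNA, template switching, PCR and Tn5 tagmentation, without molecular identifiers, so intervals and floors cover counting error only. The authors deposited raw read counts per gene symbol. Per their methods and the labels, reads were trimmed with Trimmomatic 0.36, aligned to mm10 with HISAT2 2.0.4 and counted with featureCounts 1.5.2. The annotation and strand setting are not given in the sources used here, and GENCODE M21 held 23726 of the 24514 symbols. DESeq2 was the authors' test.

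Here edgeR 4.0.16 (R 4.3.3) fitted the counts of each comparison (TMM scaling, filterByExpr with a minimum count of 10, quasi-likelihood test, Benjamini-Hochberg over all genes tested, called at an adjusted p under 0.1). SE is the log2 fold change over the root of F. The difference between sources used the SEs of both fits and a t distribution with 7 degrees of freedom. Single members were tested by permutation of mean log2(CPM + 1), exact in vivo (126 splits). Scripts were tested on simulated data. DESeq2 1.42.0, other scalings, no filter, a robust fit, plate row as a covariate, leaving out libraries, other pseudocounts and thinning were the alternatives. A level at 0 was bounded by 3 reads per library. In 7 plate rows the in vitro RFP+ wells of columns 3 and 4 were near-identical (mean squared residual 1.37 to 2.39 times sampling noise, against 2.68 to 14.2 for other RFP+ pairs). They stayed apart, above sampling noise, and were summed to 39 libraries as an alternative.

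The members and all gene lists were chosen with earlier results of these data known. Named beside the members were, per list, up to 4 genes called in the same direction in both sources with the largest in vitro change, every called gene of lists with 5 or fewer calls, and the 3 genes of highest Spearman correlation with each member (members found in 23 or more of the 46 in vitro RFP+ wells, genes of at least 5 CPM). Genes with marker values given beside a member, such as Tek, Mesp2, Rasgrp2 and Myod1, were named after their values were seen. Protein sequences were not used here, and 1 gene that the rule names is not reported here.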

Additional observations from a re-analysis of the deposited data

Results flagged for a closer look

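The measure used here was the gap between an extreme library and its neighbour over the range of the group. For normally distributed values, chance sets a library apart by it in about 1 in 20 groups. Counts with many zeros are not such values, so that rate need not hold here. Of 10 member and group pairs with a read in vivo, 1 was flagged: Ebf3 in GFP+ cells, where well D12 held 0.441 CPM, which is 1 read, and the other 4 libraries held none. A gene read in 1 library only is always flagged by this measure.

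The difference between sources in the RFP+ to GFP+ contrast passed the threshold for 5 members in an edgeR fit of all 4 groups, but for none when the SE of each source's own fit was used. In the 4-group fit the in vivo minus in vitro difference was 2.60 on the log2 scale for Tcf21 (adjusted p = 0.0577 from edgeR), 5.68 for Ebf1, 6.21 for Ebf2, 6.05 for Ebf3 and 5.16 for Rasgrp3. Ebf1, Ebf2 and Rasgrp3 had no read in embryo GFP+ libraries, so the size of their fitted differences depends on the prior count.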

How the results depend on the processing

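The counts of members called are small, so 1 gene moves them. In vivo, 3 members were called by edgeR and 5 with no filter on low counts, which added Ebf3 and Myf5. DESeq2 called 4, adding Ebf3, and leaving out each library gave 3 to 4. In vitro, 4 were called, and 6 with no filter, where Msc and Myf5 entered on 14 and 22 RFP+ reads. Between RFP+ sources 1 was called, 3 with no filter (Tcf21, Msc and Myf5) and 1 to 2 when embryo libraries were left out. Between GFP+ sources 5 were called, with a range of 4 to 6 over all alternatives. Of members that differed between sources, 0 were called by separate SEs and 5 by an interaction term in 1 fit. The members that passed the filter kept their direction under every alternative except in the RFP+ comparison of sources, where leaving out 1 embryo library turned a sign: Ebf2 ran from -0.95 (called, without well G12) to 0.14, Ebf3 from -0.66 to 0.73 and Rasgrp3 from -0.090 to 0.30. The cause was not tested. Tcf21 between GFP+ sources was not called by DESeq2 (adjusted p = 0.124) or without well B12 or D12 (edgeR's adjusted p of 0.917 and 0.136). Over its alternatives the adjusted p of Tcf21 in vivo ran from 0.195 to 0.868. No paired analysis was possible because replicate numbers only name wells in order of accession and tie no well of one population to a well of the other. Plate rows are shared between the populations in vitro but not in vivo. With plate row as a covariate in vitro, Ebf1, Ebf2, Ebf3 and Rasgrp3 were again the 4 called. Their log2 fold changes were 2.93, 3.50, 0.72 and 3.91. Tcf21 and Lhx2, under the filter in vitro, were near 0 with opposite signs, at -0.014 and -0.0052 in DESeq2 and 0.083 and 0.11 in edgeR with no filter, none of them called.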
